A study of Mus musculus with 21 samples.

Results

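The livers described here are the normal ones of a mouse study of the transcription factor gene Gata4: 11 control livers out of 21, compared with each other by the run of sample numbers they belong to. They were chosen by their titles. Control replicates 1 to 5 carry the lower of 2 runs of consecutive sample numbers and are called first-run controls, and control replicates 6 to 11 carry the higher run and are called second-run controls. Every control is labelled wild type for genotype, a sibling of the knockouts and kept on a standard diet, and 1 array was made per whole liver. The other 10 livers, 4 in the first run and 6 in the second, came from animals in which a floxed Gata4 allele had been combined with the transgenic driver Clec4g-icre, which is active in the endothelium of liver sinusoids; they took no part in the test of the controls and are given beside it. The labels do not say whether the controls carried the driver or the floxed allele, and they give no sex, age, time of death or feeding state for any animal. The labels do not call the number runs batches, so the animals' cohort, their handling and the making of the arrays cannot be told apart.

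A liver's transcripts shift with the time of day, with feeding and fasting, with stress hormones and with exposure to foreign compounds. The circadian clock is a feedback loop in which CLOCK and its partners drive the Per and Cry genes, whose products repress that drive; in liver the Per genes also answer directly to glucocorticoids and feeding. After a meal, insulin and the factors SREBP and ChREBP raise the genes of fat and sterol synthesis, whereas fasting, glucagon and glucocorticoids raise genes of glucose release and PPAR-alpha those of fat burning. Nuclear receptors such as CAR, the constitutive androstane receptor, control genes such as Cyp2b10. The Cyp2b genes encode cytochrome P450 enzymes that oxidise drugs and steroids.

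All values are log2 RMA signals, so a difference of 1 is a doubling. RMA gives each array the same distribution (sorted values agreed to within 0.0019, median 3.75), and a change shared by all genes could not be seen. Alb, the albumin gene and a defining hepatocyte marker, lay between 13.75 and 13.81 in every control, and Ttr, which encodes the hepatocyte protein transthyretin, between 13.02 and 13.38. Krt19, a bile duct marker, lay between 3.02 and 3.21, Adipoq, a fat cell marker, between 2.54 and 2.95, and Ckm, a muscle marker, between 3.33 and 3.68. Xist, transcribed from the inactive X chromosome of female cells, lay between 10.46 and 10.97 in all 11 controls, and the 3 measured Y-linked genes, Kdm5d, Uty and Eif2s3y, between 2.32 and 2.79, and the ranges of the runs overlapped for each of these 4 genes. Mean correlations of a control with the other controls ranged from 0.98 to 0.9875. Replicates 4 and 3, both of the first run, had the lowest. Of 58 named genes past the threshold, 31 lost the call when both were left out, and these losses are given below. The first principal component of the 11 controls held 26.2% of their variance and separated the runs, with scores of -41.14 to -6.64 in the first and 13.06 to 21.87 in the second.

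The question was which liver programs differ between the number runs of normal livers. In second-run controls 443 genes were higher and 465 lower than in first-run controls at an adjusted p under 0.05 (limma, Benjamini-Hochberg adjustment over 25428 genes). These are 1.74% and 1.83% of the genes tested, 3.57% together, and this share is the background against which the gene lists below are read. Of them 55 rose and 38 fell by more than 2-fold; the median difference over all genes was -0.01 and the median standard error 0.10. Groups did not overlap at all for 451 genes that were higher (1.77%) and 522 that were lower (2.05%). Without control replicates 3 and 4 the counts were 172 and 180. Each array is labelled a biological replicate, but cages, litters and collection days are not labelled, so the p-values measure only the spread between these livers.

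Among genes past the threshold, the largest differences on the log2 scale were those of the Cyp2b genes. Cyp2b9, a cytochrome P450 typical of female mouse liver, measured 11.50, 11.55, 11.37 and 12.05 in first-run controls 1 to 4 and 2.7 in the fifth. In the 6 second-run controls it lay between 2.56 and 2.81 with a median of 2.69. The gene was thus high in 4 of 5 first-run controls and near the lowest values of the array in the remaining first-run liver and in every second-run liver. Its log2 difference was -7.14 ± 1.41 (SE; adjusted p = 0.0184, limma). Whether signals near 2.7 lie above background was not tested, so the sizes given for Cyp2b9 and Cyp2b13 may be lower bounds. Cyp2b13, its neighbour in sequence and also typical of females, read 7.86, 10.04, 9.81, 9.17 and 2.86 in the first run and 2.51 to 2.78 (median 2.7) in the second, a difference of -5.26 ± 1.04 (adjusted p = 0.0188, limma). The same first-run liver was low for both genes, and the groups did not overlap for Cyp2b13. Without replicates 3 and 4 neither gene passed, at -5.89 for Cyp2b9 (adjusted p = 0.121) and -4.23 for Cyp2b13 (adjusted p = 0.123), with replicate 5 then being 1 of 3 first-run livers.

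These RefSeq promoter windows of 300 bases around the start site, on build GRCm38.p6, are shown because they tell how alike the pair is; both lie on the plus strand, and capitals mark the positions at which they differ.
Cyp2b9, chr7:26173159-26173458: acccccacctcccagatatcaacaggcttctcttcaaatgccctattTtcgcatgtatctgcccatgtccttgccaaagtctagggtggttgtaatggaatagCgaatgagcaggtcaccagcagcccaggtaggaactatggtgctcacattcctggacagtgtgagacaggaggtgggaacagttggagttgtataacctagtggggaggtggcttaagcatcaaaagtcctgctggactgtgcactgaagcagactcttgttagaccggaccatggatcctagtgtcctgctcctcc
Cyp2b13, chr7:26061245-26061544: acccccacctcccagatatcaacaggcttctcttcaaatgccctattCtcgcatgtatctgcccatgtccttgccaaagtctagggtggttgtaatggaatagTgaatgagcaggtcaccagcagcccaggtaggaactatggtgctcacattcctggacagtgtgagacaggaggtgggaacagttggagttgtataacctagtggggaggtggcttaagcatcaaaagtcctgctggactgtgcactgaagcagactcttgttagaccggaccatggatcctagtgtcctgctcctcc
The windows differed at 2 of 300 aligned positions (99.3% identical), whereas each was 71.7% identical to that of Cyp2b10. Genes this alike may share array probes, and how far the signals of Cyp2b9 and Cyp2b13 are separate measurements was not tested.

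Cyp2b10, the Cyp2b gene best known for its induction through CAR, read 9.08, 7.87, 6.73, 8.95 and 5.16 in first-run controls. In second-run controls it lay between 3.34 and 4.47 with a median of 3.67. All first-run livers were above all second-run livers, and replicate 5 was again the lowest of its run; the difference was -3.78 ± 0.60 (adjusted p = 0.00661, limma; -3.59 and 0.0314 without replicates 3 and 4). In knockout livers Cyp2b9 was high in 2 of 4 first-run livers (11.19 and 11.60, against 2.76 and 2.73) and in 1 of 6 second-run livers (10.96, the others 2.50 to 2.82). Cyp2b13 was high in the same 3 knockout livers, at 8.72, 9.17 and 7.78. Cyp2b10 lay between 3.32 and 4.88 in first-run knockouts and between 3.46 and 5.48 in second-run knockouts. The run difference of Cyp2b10 was 0.18 ± 0.44 in knockouts, and its contrast with the controls was -3.96 ± 0.81 (adjusted p = 0.0947, limma), which did not pass.

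**Figure D1:**
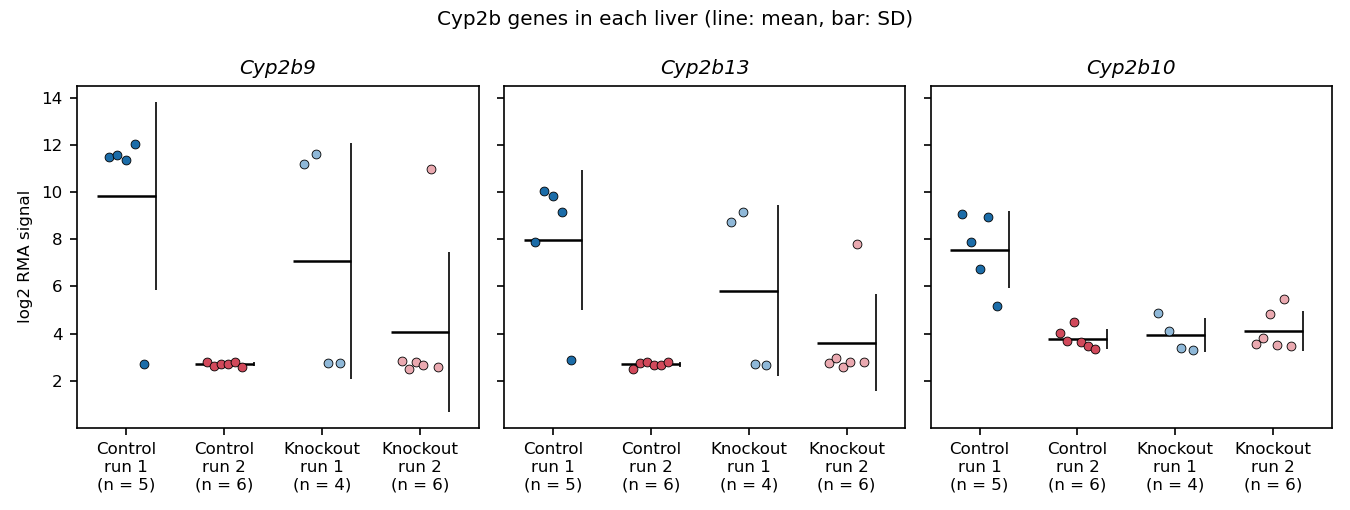
Log2 RMA signal (vertical axis) of Cyp2b9, Cyp2b13 and Cyp2b10 in each liver of the 4 groups; a point is 1 liver, the line the group mean and the bar 1 SD. Cyp2b9 and Cyp2b13 are high in 4 of 5 first-run controls and low in all 6 second-run controls, and the 3 knockout livers with high Cyp2b9 also have high Cyp2b13.

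Of 25 measured genes of the CAR, PXR and aryl hydrocarbon receptor list, 7 fell (28.0% against 1.83% of all genes) and none rose; the median difference was -0.19. Besides the Cyp2b genes they were Cyp3a25 (-1.07 ± 0.21, adjusted p = 0.0184), Cyp3a13 (-0.89 ± 0.17, adjusted p = 0.0168), Cyp2c37 (-0.53 ± 0.12, adjusted p = 0.0338) and Ahr (-0.46 ± 0.10, adjusted p = 0.0223), the receptor for dioxin-like compounds, all by limma. Cyp3a13 read 9.68, 9.29, 10.02, 9.97 and 9.95 in the first run and 8.59 to 9.29 (median 8.81) in the second. The receptor genes Nr1i3 (CAR) and Nr1i2 (PXR) differed by -0.02 and -0.23 and did not pass, nor did Cyp1a1 (-0.08) and Cyp1a2 (-0.02), which the aryl hydrocarbon receptor induces, or Cyp3a11 (-0.31), which PXR induces. Without replicates 3 and 4 only Cyp2b10 of this list passed, and the call of Cyp2c37 was also lost in 7 of the 11 fits that left out 1 liver.

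Sex-biased liver genes gave calls in both directions. Of 23 measured genes that are higher in female liver, 4 fell (Cyp2b9, Cyp2b13, Sult3a1 and Tox, 17.4% against 1.83% of all genes). Hao2, a peroxisomal hydroxy-acid oxidase, alone rose (4.35% against 1.74%), by 1.06 ± 0.21 (adjusted p = 0.02, limma), and the list median was -0.09. Without replicates 3 and 4 only Tox of this list passed, and that gene and Sult3a1 each lost the call in 9 of the 11 fits that left out 1 liver. Cyp2b9 and Cyp2b13 also count among the falls of the CAR, PXR and aryl hydrocarbon receptor list, so the shares of both lists overlap. Whether the signals of this pair are separate measurements was not tested. Other female-typical genes had small differences: Cyp2c40 of -0.05, Sult2a1 of 0.09 and Cyp17a1 of 0.20, none past the threshold. Of 20 measured male-typical genes only Gstp1, a glutathione transferase, passed (5.0% against 1.74% of all genes), at 0.62 ± 0.15 (adjusted p = 0.0389, limma). That call was lost when any 1 of 9 of the 11 livers was left out. It was also lost without replicates 3 and 4 (adjusted p = 0.147, limma). Cyp4a12a, a P450 typical of males, had medians of 2.71 and 2.59 in the first and second run. Slco1a1, an organic anion transporter, split the livers of both runs: it read 4.27 in first-run control 3 against 11.12 to 12.04 in the other first-run controls, and 4.47 and 8.14 in second-run controls 9 and 8 against 10.84 to 11.33 in the rest.

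The clock list held 18 measured genes, of which Per1 and Tef rose (11.1% against 1.74% of all genes), Clock fell (5.56% against 1.83%) and 15 did not pass. The median was 0.07. Per1, a repressor arm of the loop, read 6.82, 6.24, 6.18, 6.14 and 6.51 in first-run controls. Its second-run values were 8.15, 7.94, 7.67, 7.91, 7.78 and 7.51. The lowest second-run liver was above the highest first-run liver, and the difference was 1.45 ± 0.14, a 2.73-fold rise (adjusted p = 0.000676, limma; 1.30 and 0.00667 without replicates 3 and 4). Tef, a PAR-domain factor driven by the clock, read 4.37, 4.12, 4.06, 3.93 and 4.0 against 4.47 to 4.74 (median 4.65), a rise of 0.54 ± 0.08 (adjusted p = 0.00587, limma). Clock itself, the activator, lay between 9.26 and 9.56 in the first run and between 8.81 and 9.25 in the second, a difference of -0.37 ± 0.08 (adjusted p = 0.0335, limma). That call was lost in 7 of the 11 fits that left out 1 liver and without replicates 3 and 4 (adjusted p = 0.17).

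The other arms of the clock did not pass. Arntl, the partner of CLOCK, differed by -0.24 ± 0.13 and Npas2, its paralogue, by 0.78 ± 0.31. Among repressors Per2 differed by 0.27 ± 0.11, Per3 by 0.20 ± 0.13, Cry1 by -0.52 ± 0.22 and Cry2 by 0.37 ± 0.18. Nr1d1 and Nr1d2, the REV-ERB receptors that repress Arntl, differed by -0.60 ± 0.33 and 0.27 ± 0.24. Nr1d1 read 6.28 in second-run control 6 and 7.79 to 8.72 in the rest of that run. The output factors Dbp (0.11 ± 0.22), Hlf (-0.46 ± 0.14) and Nfil3 (-0.48 ± 0.23), with Rora (0.01 ± 0.10), Ciart (0.03 ± 0.20), Bhlhe40 (0.29 ± 0.25) and Bhlhe41 (0.02 ± 0.06), completed the list. The smallest adjusted p among these genes was 0.0969, for Hlf. Of 16 measured rhythmic output genes 1 fell (6.25% against 1.83% of all genes), and the list median was 0.04. That gene was Leo1 (-0.63 ± 0.11, adjusted p = 0.00928, limma, and 0.0537 without replicates 3 and 4).

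**Figure D2:**
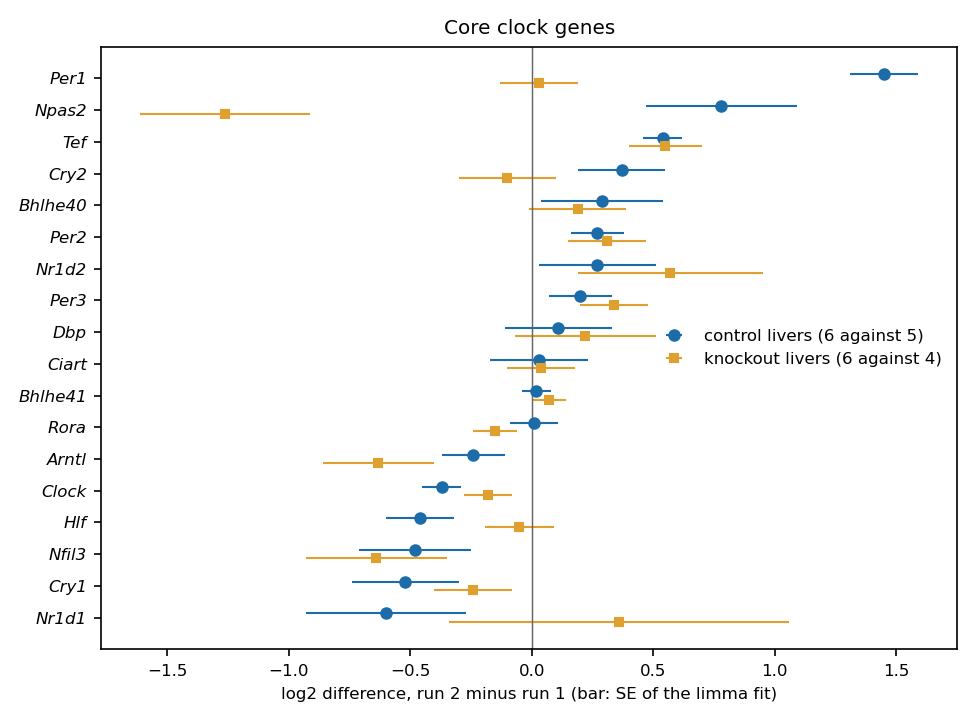
Log2 difference, run 2 minus run 1, with the standard error of the limma fit (horizontal axis) for the 18 core clock genes, in control livers (circles) and in knockout livers (squares). Per1 lies at 1.45 in controls and 0.03 in knockouts, while Tef lies at 0.54 and 0.55.

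Per1 was the clock gene whose run difference differed between genotypes. In knockout livers it read 7.90, 7.26, 7.80 and 7.44 in the first run and 7.39 to 8.09 in the second, a difference of 0.03 ± 0.16, so first-run controls alone were below 7. The contrast of control and knockout run differences was 1.41 ± 0.22 (adjusted p = 0.0259, limma over 21 arrays). Tef differed by 0.55 ± 0.15 in knockouts, which did not pass (adjusted p = 0.211, limma), and its contrast was 0.00 ± 0.17. Npas2 went the other way in knockouts, at -1.26 ± 0.35 (adjusted p = 0.21, limma), with a contrast of 2.03 ± 0.49 that did not pass (adjusted p = 0.135).

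Promoters of Per1 and of Insig1, a gene of the sterol pathway described next, are shown because both genes were among the 10 rises named by rule (the largest past the threshold without overlap between runs, predicted and unnamed genes left out) and both hold the letters of 2 regulatory motifs; capitals mark the E-box CACGTG, which clock proteins among others can bind, and the core TGACGT (or ACGTCA on the other strand) of the cyclic AMP response element, and all 3 windows lie on the plus strand of GRCm38.p6 (RefSeq).
Per1, first start, chr11:69098699-69098998: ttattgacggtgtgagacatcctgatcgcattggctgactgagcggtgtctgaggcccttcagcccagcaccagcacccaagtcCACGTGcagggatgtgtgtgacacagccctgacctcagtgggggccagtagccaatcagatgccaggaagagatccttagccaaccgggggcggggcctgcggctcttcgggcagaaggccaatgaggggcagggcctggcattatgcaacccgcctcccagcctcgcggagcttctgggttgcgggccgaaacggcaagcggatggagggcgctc
Per1, second start, chr11:69099902-69100201: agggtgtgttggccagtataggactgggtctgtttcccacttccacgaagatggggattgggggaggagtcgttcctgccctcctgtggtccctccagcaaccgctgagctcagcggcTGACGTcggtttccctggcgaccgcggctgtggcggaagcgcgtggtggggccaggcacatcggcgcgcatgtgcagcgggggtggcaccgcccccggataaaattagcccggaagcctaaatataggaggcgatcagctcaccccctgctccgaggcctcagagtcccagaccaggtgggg
Insig1, chr5:28071162-28071461: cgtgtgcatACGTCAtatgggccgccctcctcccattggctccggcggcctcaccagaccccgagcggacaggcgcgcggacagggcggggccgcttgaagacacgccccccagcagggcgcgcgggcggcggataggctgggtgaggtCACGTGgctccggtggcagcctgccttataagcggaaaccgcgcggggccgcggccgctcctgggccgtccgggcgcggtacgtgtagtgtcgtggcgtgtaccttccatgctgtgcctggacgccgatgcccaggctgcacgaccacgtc
Searched on both strands, the E-box was in 7.15% and TGACGT in 7.51% of all 32851 promoter windows of this length, and no E-box overlapped a TGACGT core in these 3 windows. These 10 rises had windows for 7 genes, 8 in all, of which 3 held an E-box and 3 the TGACGT core. The 10 falls named by the same rule had windows for 7 genes, 10 in all, of which 1 held an E-box (Fkbp5) and 0 the TGACGT core. A match of letters is a description and no binding was measured.

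Fat and sterol synthesis gave rises and no falls in second-run controls. All 21 measured lipogenic genes had a positive difference, with a median of 0.63, and 5 passed: Srebf1, Gpam, Mid1ip1, Tmem97 and Aacs (23.8% against 1.74% of all genes). Srebf1, which encodes the insulin-responsive activator SREBP1, read 8.36, 8.16, 8.31, 7.25 and 8.14 in the first run and 8.78 to 9.85 (median 9.19) in the second, a rise of 1.21 ± 0.24 (adjusted p = 0.0186, limma). Aacs, which activates acetoacetate for lipid synthesis, rose by 1.13 ± 0.19 (adjusted p = 0.00932), and Gpam, the first acyltransferase of triglyceride synthesis, by 0.93 ± 0.21 (adjusted p = 0.0338), both by limma. Fasn, the fatty acid synthase, read 11.47, 11.36, 11.18, 10.46 and 9.97 against 11.62 to 12.52 (median 11.82); the groups did not overlap, but the difference of 1.01 ± 0.26 did not pass (adjusted p = 0.0607, limma). Pnpla3, a lipid droplet protein that SREBP1 induces, had the widest gap of the list, 2.29 ± 0.60, and did not pass either (adjusted p = 0.0616, limma).

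The lipogenic list score, the mean over members relative to first-run controls, lay between -0.52 and 0.36 in first-run controls and between 0.55 and 1.18 in second-run controls, without overlap. In knockouts it lay between -0.38 and 0.12 in the first run and between -0.15 and 0.24 in the second. The median run difference was 0.28 in knockouts, with 19 of 21 members positive and none past the threshold. Without replicates 3 and 4 only Tmem97 of this list passed, the call of Gpam was also lost in 6 of the 11 fits without 1 liver, and the list median ranged from 0.52 to 0.80 as each single liver was left out.

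Of 19 measured cholesterol genes 4 rose (21.1% against 1.74% of all genes) and none fell, with a median of 0.24. Insig1, which holds the sterol-sensing SREBP complex in the endoplasmic reticulum and is itself an SREBP target, read 10.22, 10.11, 10.02, 9.76 and 9.76 in first-run controls. In second-run controls it read 11.63, 11.57, 11.75, 11.33, 11.31 and 11.82. More than 1 log2 unit separated the highest first-run from the lowest second-run liver, and the rise was 1.59 ± 0.12, or 3.02-fold (adjusted p = 0.000218, limma; 0.00381 without replicates 3 and 4). In knockouts it read 9.78 to 10.50 and 10.56 to 11.42, a difference of 0.78 ± 0.19 (adjusted p = 0.155, limma). Mvd (1.15 ± 0.17, adjusted p = 0.00435), Sc5d (0.61 ± 0.12, adjusted p = 0.0188) and Mvk (0.32 ± 0.07, adjusted p = 0.0301), enzymes early and late in the sterol pathway, were the others by limma. Sc5d and Mvk did not pass without replicates 3 and 4 (adjusted p = 0.101 and 0.156), and Mvk also lost the call in 9 of the 11 fits without 1 liver. Hmgcs1 (-0.07), Sqle (-0.06), Idi1 (-0.02) and Cyp51 (-0.26), enzymes of the same pathway, did not pass.

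Among 21 measured genes that fasting and glucagon raise, 4 rose (Pck1, Tat, Sik1 and Ddit4) and none fell. These 4 were 19% of the list against 1.74% of all genes, and the list median was 0.19. None of the 4 genes that rose is in the lipogenic list. Pck1, the gatekeeper enzyme of glucose synthesis, read 12.15, 11.77, 11.36, 11.86 and 12.14 in the first run and 12.38 to 12.68 (median 12.58) in the second, a rise of 0.70 ± 0.13 (adjusted p = 0.013, limma). Tat, which breaks down tyrosine, rose by 0.39 ± 0.09 (adjusted p = 0.0313), and Sik1, a kinase induced by cyclic AMP, by 1.32 ± 0.27 (adjusted p = 0.0222), both by limma. G6pc, the last step of glucose release, differed by 0.20 ± 0.17, Igfbp1 by 1.27 ± 0.45 and Ppargc1a by 0.36 ± 0.13, none past the threshold. The count of 4 was 1 (Pck1) without replicates 3 and 4, to 1 without second-run control 7 and to 2 without first-run control 5.

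Of 28 measured genes of PPAR-alpha and fat oxidation, 2 fell (7.14% against 1.83% of all genes) and none rose, with a median of -0.18. Acot1, an acyl-CoA thioesterase, fell by 1.17 ± 0.21 (adjusted p = 0.011, limma), from 5.31 to 6.49 in the first run to 4.27 to 5.06 in the second. Cidec, a lipid droplet protein, fell by 1.01 ± 0.24 (adjusted p = 0.0391, limma), a call lost in 8 of the 11 fits without 1 liver. Cyp4a14 (-1.60 ± 0.52) and Cyp4a10 (-1.13 ± 0.36), fatty acid hydroxylases that PPAR-alpha induces, did not pass, nor did Cpt1a (-0.38 ± 0.15), the entry step of mitochondrial oxidation, or Fgf21 (0.13 ± 0.37).

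**Figure D3:**
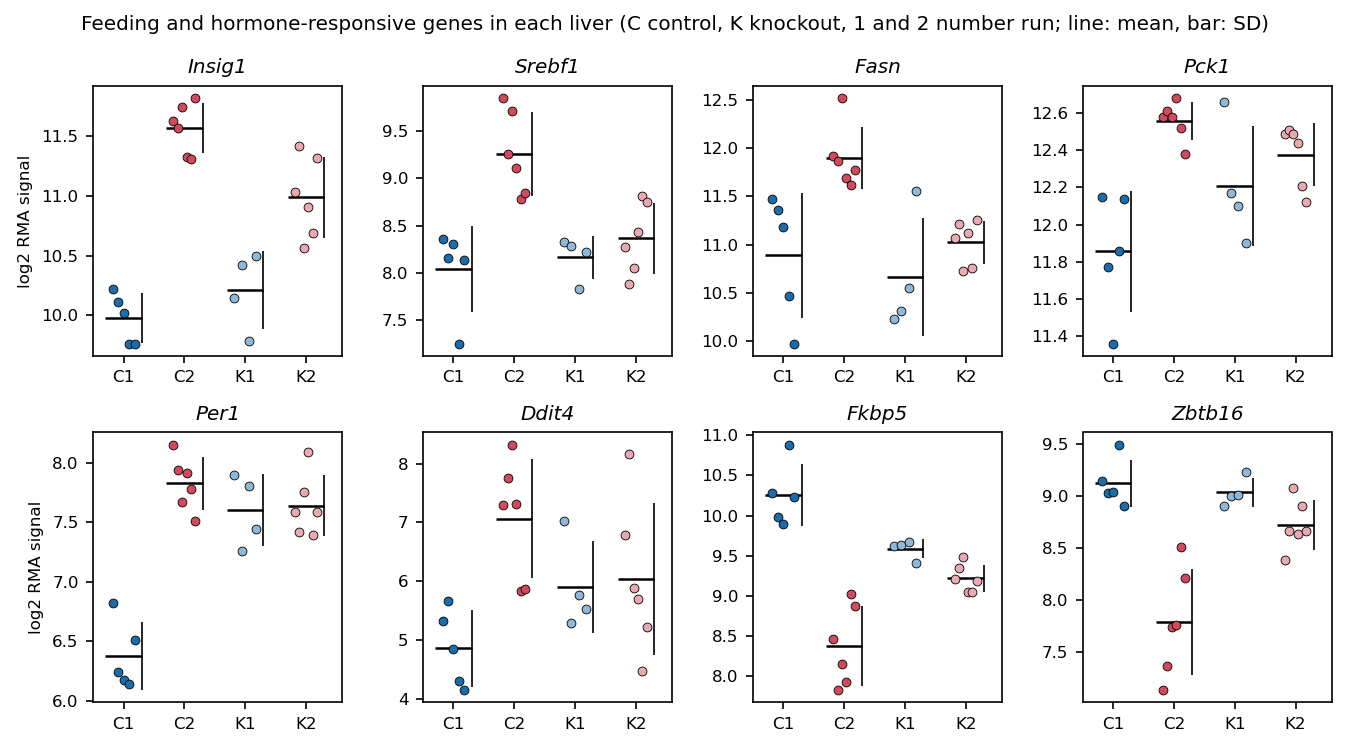
Log2 RMA signal (vertical axis) of 8 genes in each liver of first-run controls (C1), second-run controls (C2), first-run knockouts (K1) and second-run knockouts (K2); a point is 1 liver, the line the group mean and the bar 1 SD. Insig1, Per1 and Pck1 are higher in all C2 than in all C1 livers, and Fkbp5 and Zbtb16 are lower.

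Targets of glucocorticoids changed in both directions. Of 16 measured, Per1, Ddit4, Sgk1 and Tat rose (25.0% against 1.74% of all genes), while Fkbp5 and Zbtb16 fell (12.5% against 1.83%). The median was 0.14. The 4 rises became 2 without replicates 3 and 4 and without replicate 6, 8 or 10, and 1 without replicate 5 or 7. Fkbp5, a chaperone that dampens the glucocorticoid receptor and is induced by it, read 10.28, 9.98, 9.90, 10.88 and 10.23 in first-run controls. Second-run values were 8.47, 7.83, 8.16, 7.93, 9.02 and 8.88. Every second-run liver was below every first-run liver, and the difference was -1.87 ± 0.24, a 3.66-fold fall (adjusted p = 0.0024, limma). Zbtb16, a transcription factor also induced by glucocorticoids, read 9.14, 9.03, 9.04, 9.49 and 8.90 against 7.13 to 8.51 (median 7.75), a difference of -1.34 ± 0.22 (adjusted p = 0.00801, limma; 0.0537 without replicates 3 and 4). Knockout values lay between those of the control runs for Fkbp5, at 9.41 to 9.67 in the first run and 9.05 to 9.48 in the second; the contrast of run differences was -1.51 ± 0.28 (adjusted p = 0.0751, limma) and did not pass.

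Ddit4, an inhibitor of the growth kinase mTORC1 that fasting, stress and glucocorticoids raise, had the largest rise past the threshold among the genes named by rule. It read 5.33, 5.67, 4.85, 4.30 and 4.15 in first-run controls and 7.29, 7.76, 8.32, 7.31, 5.84 and 5.87 in second-run controls, where replicates 10 and 11 were clearly below the others. The rise was 2.20 ± 0.46, or 4.60-fold (adjusted p = 0.0226, limma). It no longer passed without replicate 4, 5 or 7 (adjusted p up to 0.0587) or without replicates 3 and 4 together (0.131). Sgk1, a kinase of salt and stress signalling, rose by 0.72 ± 0.17 (adjusted p = 0.0371, limma), a call lost in 9 of the 11 fits without 1 liver. Tsc22d3 (0.43 ± 0.23), Klf9 (0.19 ± 0.13), Mt1 (-0.09 ± 0.13) and Mt2 (-0.22 ± 0.22), other targets, did not pass, and neither did the receptor gene Nr3c1 (0.10 ± 0.08).

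Immediate-early genes, which answer within minutes to growth signals and to stress, gave 3 rises and no fall among 28 measured. The rises were 10.7% of the list against 1.74% of all genes, and the median was 0.36. Ier2 read 5.55, 5.54, 5.48, 5.30 and 5.78 in the first run and 6.18 to 7.52 (median 6.76) in the second, a rise of 1.27 ± 0.25 (adjusted p = 0.0168, limma). Zfp36, which destabilises messenger RNAs, rose by 1.15 ± 0.26 (adjusted p = 0.0313), and Ppp1r15a, a phosphatase subunit that ends the translation block of stressed cells, by 0.55 ± 0.11 (adjusted p = 0.0223), both by limma. Btg2 (1.54 ± 0.46), Egr1 (1.5 ± 0.56), Nr4a1 (1.37 ± 0.48) and Fos (0.63 ± 0.42) had wide errors and did not pass. The count was 1 without control replicate 1, 3, 7 or 8 alone, 2 without 5 or 9, and 1 (Zfp36) without 3 and 4 together. The list score lay between -0.15 and 0.10 in first-run and between -0.01 and 1.0 in second-run controls.

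Other stress programs showed few calls. Of 20 measured heat shock genes 1 rose (Dnajb4, 0.46 ± 0.10, adjusted p = 0.0306), of 23 genes of the unfolded protein response 1 rose (Sec61b, 0.62 ± 0.13, adjusted p = 0.0237), and of 18 genes of the integrated stress response 2 rose (Shmt2, 0.52 ± 0.10, adjusted p = 0.019; Atf5, 0.47 ± 0.11, adjusted p = 0.0359), all by limma. List medians were -0.15, 0.03 and 0.07, and the rises were 5.0%, 4.35% and 11.1% of these lists against 1.74% of all genes. Of 18 NRF2 targets Gstp1 alone passed (5.56% against 1.74% of all genes), with a list median of 0.06. The calls of Sec61b, Shmt2 and Atf5 were lost without replicates 3 and 4. Those of Sec61b, Dnajb4 and Atf5 were lost in 4, 8 and 9 of the 11 fits that left out 1 liver.

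Genes of hepatocyte identity had mostly negative differences, with a median of -0.18. Of 15 measured, 2 fell (13.3% against 1.83% of all genes). They were Prox1, a homeobox factor of hepatocyte fate (-0.65 ± 0.14, adjusted p = 0.0298, limma), and Nr1h4, the bile acid receptor FXR (-0.37 ± 0.09, adjusted p = 0.0447, limma). Leaving out 1 liver removed the first call in 6 and the second in 10 of 11 fits, Prox1 did not pass without replicates 3 and 4 (adjusted p = 0.123), and no member passed without replicate 1, 5, 8, 9 or 11. Hnf4a, the master factor of hepatocytes, differed by -0.24 ± 0.07 and did not pass.

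Tbx3 and Axin2 fell among 20 measured pericentral genes, which are typical of hepatocytes near the central vein, where WNT signals set the program. These 2 falls were 10% of the list against 1.83% of all genes, and no member rose. Each array was made from a whole liver, so the zone in which these genes fell was not tested. Tbx3, a WNT-responsive transcription factor, read 8.55, 7.49, 8.31, 7.76 and 8.01 in the first run and 5.79 to 6.87 (median 6.49) in the second, a difference of -1.65 ± 0.21 (adjusted p = 0.00269, limma). Axin2, a WNT target and brake, fell by 0.95 ± 0.17 (adjusted p = 0.0123, limma; 0.0855 without replicates 3 and 4). Other WNT-dependent genes did not pass: Lgr5 differed by 0.23 ± 0.19, Sp5 by 0.01 ± 0.14, Notum by -0.18 ± 0.13 and Glul by -0.26 ± 0.08. The list median was -0.13. Among 18 periportal genes Pck1 and Uroc1 (0.47 ± 0.10, adjusted p = 0.0275, limma) rose (11.1% against 1.74% of all genes) and none fell. Uroc1 did not pass without replicates 3 and 4 (adjusted p = 0.162, limma), and lost the call in 6 of the 11 fits without 1 liver.

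In bile acid handling, 1 of 25 measured genes rose (4.0% against 1.74% of all genes) and 2 fell (8.0% against 1.83%). Hsd3b7, an enzyme of bile acid synthesis, read 9.76 to 9.92 in the first and 10.25 to 10.45 in the second run, a rise of 0.49 ± 0.06 (adjusted p = 0.00194, limma). Abcb4, which exports phospholipid into bile, fell by 0.58 ± 0.10 (adjusted p = 0.00971, limma; 0.0537 without replicates 3 and 4), and Nr1h4 was the other. Cyp7a1, the rate-limiting enzyme of bile acid synthesis, differed by -0.95 ± 0.30 and did not pass (adjusted p = 0.118, limma). Of 24 cell cycle genes Rrm2, a subunit of ribonucleotide reductase, fell by 1.56 ± 0.24 (adjusted p = 0.0058) and Ccnd1, cyclin D1, by 0.70 ± 0.17 (adjusted p = 0.0496), both by limma. These falls were 8.33% of the list against 1.83% of all genes, and the list median was -0.07. Ccnd1 did not pass in 8 of the 11 fits without 1 liver, nor without replicates 3 and 4 (adjusted p = 0.221).

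Acute phase genes, which interleukins raise in hepatocytes, had negative differences in 23 of 26 members, with a median of -0.30. Past the threshold 2 fell (7.69% against 1.83% of all genes) and none rose. Il6ra, the receptor subunit for interleukin 6, read 9.93, 9.94, 9.59, 10.10 and 10.03 against 8.73 to 9.38 (median 9.07), a difference of -0.86 ± 0.12 (adjusted p = 0.00392, limma). Fga, a fibrinogen chain, fell by 0.39 ± 0.10 (adjusted p = 0.048, limma), and only the fit without replicate 6 kept that call among those leaving out 1 liver; without replicates 3 and 4 the adjusted p was 0.167. Saa1 and Saa2, serum amyloid A, differed by -1.57 ± 0.72 and -1.89 ± 0.91 and did not pass; Saa2 spanned 6.08 to 12.52 within the first run, with replicate 3 the highest. Il1r1, an interleukin receptor and 1 of the 10 falls named by rule, read 9.45, 8.83, 9.40, 9.73 and 9.25 against 7.0 to 8.10 (median 7.44), a difference of -1.87 ± 0.19 (adjusted p = 0.000803, limma).

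Of 29 interferon-stimulated genes 1 rose (3.45% against 1.74% of all genes), with a list median of 0.09. That gene was Tap1 (0.75 ± 0.18, adjusted p = 0.0398, limma), whose call was lost in 8 of 11 fits without 1 liver. Without replicates 3 and 4 its adjusted p was 0.0922 (limma). No member passed in either direction among 18 Kupffer cell, 17 monocyte and macrophage, 10 MHC class II, 16 B and plasma cell, 23 T and NK cell and 19 neutrophil genes. Their medians were 0.16, -0.14, 0.19, 0.02, 0.00 and -0.09. As each control was left out, the Kupffer median ranged from 0.01 to 0.43, the monocyte median from -0.18 to -0.04 and the MHC class II median from 0.12 to 0.39. The defining Kupffer markers Clec4f and Vsig4 differed by 0.00 ± 0.26 and 0.30 ± 0.36. In whole liver, fewer cells of a type and less RNA per cell cannot be told apart. H2-Ab1, an MHC class II chain, differed by 0.72 ± 0.29 (adjusted p = 0.245, limma), and by 1.2 without replicates 3 and 4 (adjusted p = 0.0155). First-run control 3 had the highest list score of its run for Kupffer cells (1.03), monocytes (0.76), B cells (0.73), fibrillar matrix (0.59), MHC class II (0.58), acute phase (0.58), interferon-stimulated (0.54), cell cycle (0.34) and neutrophil (0.27) genes, and their part in the run differences was not tested beyond leaving that liver out.

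Matrix genes gave no call in the fibrillar collagen and myofibroblast list, which had 29 measured members, a median of -0.10 and differences from -0.54 to 0.28. Fn1, fibronectin, had the lowest p of that list at -0.15 ± 0.07 (adjusted p = 0.351, limma). Among 19 basement membrane genes Dag1, dystroglycan (0.51 ± 0.11, adjusted p = 0.0242), and Col15a1, collagen XV (0.67 ± 0.16, adjusted p = 0.0464), rose by limma. The 2 rises were 10.5% of that list against 1.74% of all genes. Neither gene passed without replicates 3 and 4. Dag1 lost the call without replicate 3, 4, 7 or 11 alone, and Col15a1 lost it in 9 of the 11 fits without 1 liver. No stellate cell gene of 18 and no cholangiocyte gene of 14 passed. Of 21 sinusoidal endothelial genes 1 rose (4.76% against 1.74% of all genes). That gene was Bmp2, a bone morphogenetic protein, with a rise of 0.81 ± 0.17 (adjusted p = 0.0238, limma). Its adjusted p was 0.0691 (limma) without replicates 3 and 4, and the call was lost in 4 of the 11 fits without 1 liver. The defining endothelial markers Stab2 and Clec4g differed by 0.32 ± 0.19 and 0.79 ± 0.34 and did not pass.

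Lists for tissues that could be carried over, pancreas (14 measured) and muscle and fat (15), had no call and medians of -0.04 each. Alas2, the red cell enzyme of haem synthesis, rose by 0.60 ± 0.15 (adjusted p = 0.0464, limma). It was 1 of 6 red cell genes (16.7% against 1.74% of all genes), all of them positive with a median of 0.28. The Alas2 call was lost in 9 of 11 fits without 1 liver and without replicates 3 and 4 (adjusted p = 0.201, limma). The part of blood content in other results was not tested. Cox8a, a subunit of cytochrome oxidase, rose by 0.66 ± 0.12 (adjusted p = 0.0102, limma). It alone passed among 25 respiratory chain genes (4.0% against 1.74% of all genes), with a list median of 0.08. Ribosomal protein (19), growth hormone and IGF (15), fetal liver (10) and sex chromosome (4) lists had no call, with medians of -0.06, 0.01, -0.03 and -0.03.

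**Figure D4:**
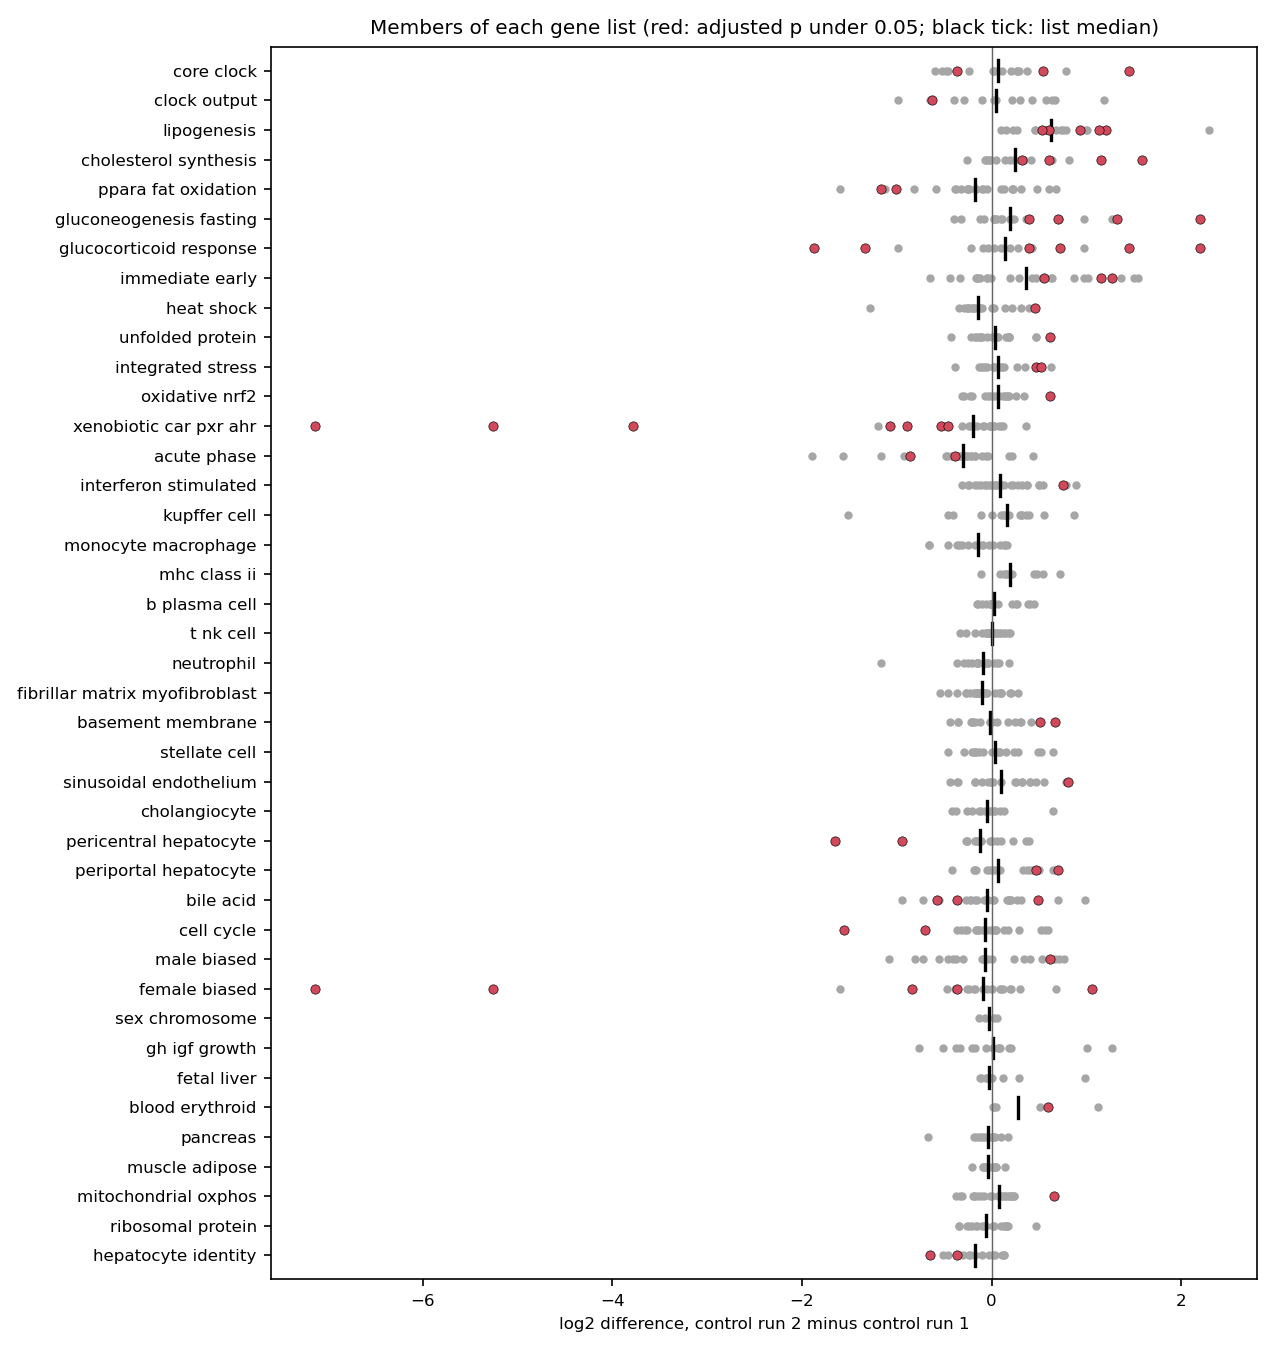
Log2 difference, control run 2 minus control run 1 (horizontal axis), of every measured member of the 41 gene lists (rows); red points passed at an adjusted p under 0.05 in the limma fit over all genes, grey points did not, and black ticks are list medians. The 21 lipogenic genes lie above 0 with a median of 0.63, 23 of 26 acute phase genes lie below 0, and the Cyp2b genes lie farthest to the left.

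The remaining large rises among the 10 set by rule belonged to varied functions. Plk3, a polo-like kinase of stress signalling, read 7.03, 6.42, 6.25, 6.25 and 7.14 against 8.16 to 9.65 (median 8.44), a rise of 2.09 ± 0.29 (adjusted p = 0.00358, limma). Norad, a long noncoding RNA that binds Pumilio proteins, rose by 1.94 ± 0.18 (adjusted p = 0.000506, limma) from 4.05 to 5.06 up to 6.31 to 7.10. Rasgef1b (1.68 ± 0.23), Spata2l (1.68 ± 0.20), Tmem150a (1.5 ± 0.13), Pde9a (1.49 ± 0.21), a phosphodiesterase for cyclic GMP, and Kcnk5 (1.42 ± 0.27), a potassium channel, had adjusted p-values of 0.000506 to 0.0155 in the limma fit. Of these, Kcnk5 did not pass without replicates 3 and 4 (adjusted p = 0.0983).

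Among the largest falls, Map3k5, the stress kinase ASK1, read 9.03, 8.96, 9.17, 9.38 and 8.97 in first-run and 7.22 to 7.87 (median 7.72) in second-run controls, a difference of -1.48 ± 0.12 (adjusted p = 0.000456, limma). Arrdc3, an arrestin-like adaptor of beta-adrenergic receptors, read 9.75 to 10.63 against 8.27 to 8.87, a difference of -1.47 ± 0.17 (adjusted p = 0.00194, limma). Ppl, the desmosome protein periplakin, fell by 1.64 ± 0.32 (adjusted p = 0.0174, limma; 0.104 without replicates 3 and 4). The lowest adjusted p of the comparison, 1.84e-05, was that of Tob1, an antiproliferative protein, which read 8.97, 8.85, 9.0, 8.89 and 8.97 in the first run and 9.83 to 10.01 in the second. It was singled out after its values were seen.

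The knockout livers shared no array with this comparison. Between their runs 3 genes were higher (Tceal9, Ndufc1 and Meaf6) and 2 lower (Mif and Tma7), 0.0197% of those tested; with array weights the counts were 46 and 40, the 5 among them. Without weights, 2839 genes had an unadjusted p under 0.05 against 4050 in controls. None of these 5 calls was left without knockout replicate 1, 3, 4, 5, 7, 8 or 10, and 3 were left without replicate 6. None of the 5 genes was among the 908 called in controls. Of those 908 genes 714 (78.6%) had the same sign of run difference in knockouts, against 55.1% of all genes. The median run difference of the 443 higher genes was 0.62 in controls and 0.17 in knockouts, and of the 465 lower genes -0.52 and -0.14. These genes were chosen by their control differences, which inflates the control medians. The medians therefore do not tell whether the run difference was smaller in knockouts. Across all genes the 2 sets of run differences had a Pearson correlation of 0.26, a description only, since genes within a liver are not independent.

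The test of the difference itself, control minus knockout run difference over 21 arrays, passed for 8 genes, 0.0315% of those tested: Per1, Ppp1r15a, Tob1 and Ppp1r35 on the higher side and Map3k5, Rnf20, Chchd4 and Trmt1l on the lower. Tob1 differed by 0.98 ± 0.06 between control runs and by 0.21 ± 0.10 between knockout runs, a contrast of 0.77 ± 0.11 (adjusted p = 0.0161, limma). Ppp1r15a differed by 0.55 in controls and -0.49 in knockouts, a contrast of 1.04 ± 0.18 (adjusted p = 0.0305, limma). Chchd4, a factor of mitochondrial protein import, differed by -0.79 in controls and 0.41 in knockouts, and its contrast was -1.2 ± 0.20 (adjusted p = 0.0285, limma). Map3k5 differed by -1.48 in controls and -0.39 in knockouts (contrast -1.09 ± 0.18, adjusted p = 0.0285, limma). Most genes called in controls were thus not shown to differ in run difference between the genotypes. The count of 8 was 0 without knockout replicate 3, between 2 and 5 without control replicate 2, 3, 4, 6, 7 or 8 or knockout replicate 4, 8, 9 or 10, 15 without control replicate 11 and 20 without control replicate 10.

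**Figure D5:**
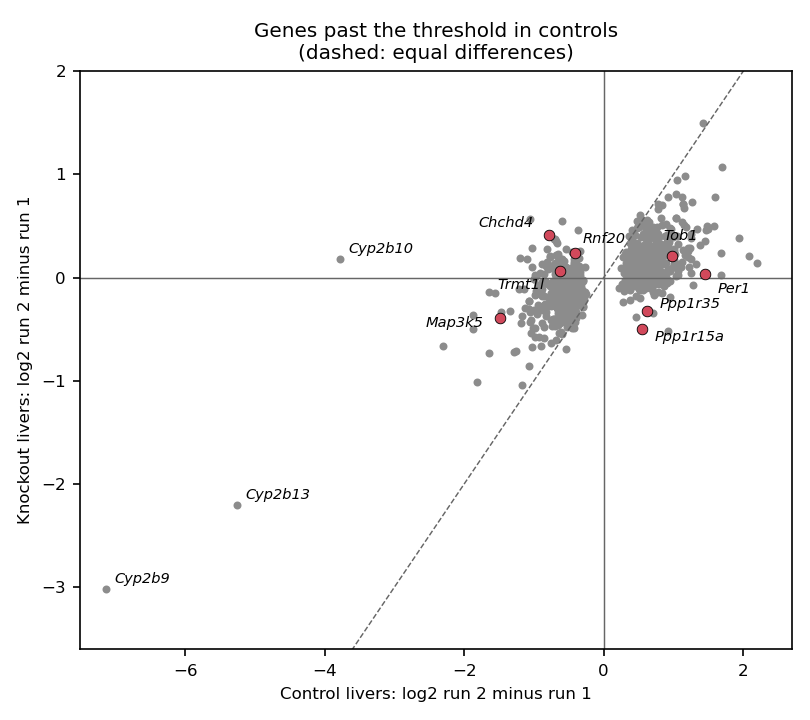
Run difference in knockout livers (vertical axis, log2) against run difference in control livers (horizontal axis, log2) for the 908 genes past the threshold in controls; the dashed line marks equal differences and red points the 8 genes whose control and knockout run differences differed by test. Most points lie nearer to 0 on the knockout axis than on the control axis, with medians of 0.17 against 0.62 for the higher and -0.14 against -0.52 for the lower genes. The genes were chosen by their control differences, so smaller knockout differences do not by themselves show a smaller run difference in knockouts.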

How the data were processed

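Total RNA of whole livers was turned into labelled cRNA for Affymetrix arrays, as the labels' protocols state. The deposited values are log2 signals that the authors made with RMA, per the submitters' processing notes. The labels name no RMA version, array model or genome build. RMA corrects background, equalises the distributions of the arrays and summarises probes per gene, so depth does not apply and precision rests on the number of arrays. Of 25428 rows, 24705 had 1 symbol in the platform annotation and 723 stayed unnamed, 35 of them among the 908 genes past the threshold. The values of control replicate 1 were stored with more decimals than the others.

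From these values, second-run minus first-run differences were fitted by lmFit and tested by eBayes (limma 3.58.1, R 4.3.3), without a filter, a covariate or a pseudocount, for the controls (6 against 5) and separately for the knockouts (6 against 4). The contrast of both was fitted over 21 arrays. Adjustment was by Benjamini-Hochberg over all rows, with 0.05 as the threshold. The scripts were tested on simulated data.

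The comparison and its 41 gene lists (743 of 812 symbols measured) were chosen with earlier results of these data known. Genes named by rule were the core clock genes, the 10 largest rises and 10 largest falls without overlap or predicted genes, and up to 3 members per list with the lowest p that passed, else the 1 with the lowest p; 88 genes resulted. Predicted, unnamed, immune receptor variable, olfactory and small RNA genes were kept out of the largest changes. Other genes are examples chosen with their values in view. Promoters came from RefSeq (GRCm38.p6). Alternatives were a second quantile normalization, median centring, a filter at the median row mean and an intensity trend with robust prior. Array weights, the spread of all 21 arrays, a rank-sum test, a threshold of 0.01 and leaving out each array were further ones. The rank-sum test was exact for genes without tied values and used a normal approximation for the rest. Leaving out control replicates 3 and 4 together was added after seeing the data. Figures were drawn with matplotlib 3.10.9.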

Additional observations from a re-analysis of the deposited data

Results flagged for a closer look

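In groups of 5 or 6 livers, 10 of 258 sets of values (3.88%) held a liver whose gap to its neighbour, relative to the range, was above Dixon's critical value at the 0.05 level; chance gives about 1 in 20. Among named genes, Cyp2b9 read 2.7 in first-run control 5 against 11.37 to 12.05 in the others of its run. Nr1d2 read 7.28 in second-run control 6 against 8.09 to 8.51, and Cd79a, a B cell receptor chain, read 3.58 in the same liver against 3.14 to 3.29. Retn, a fat cell hormone gene, read 3.87 in second-run control 7 against 3.34 to 3.53.

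For list scores, which are means over a list's members relative to first-run controls, the core clock score was 0.30 in second-run control 7 against 0.02 to 0.07 in the rest, and the clock output score was 0.16 in second-run control 6 against -0.02 to 0.05. First-run control 3 stood apart in 4 scores: 0.76 for monocytes and macrophages (others -0.27 to -0.10), 0.73 for B and plasma cells (others -0.37 to -0.06), 0.59 for fibrillar matrix (others -0.24 to -0.03) and -0.31 for bile acid genes (others 0.00 to 0.12).

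For 8 genes the run difference differed between control and knockout livers by the limma contrast over 21 arrays (adjusted p of 0.0161 to 0.0305). Control minus knockout run differences were 1.41 for Per1, 1.04 for Ppp1r15a, 0.94 for Ppp1r35 and 0.77 for Tob1. They were -1.2 for Chchd4, -1.09 for Map3k5, -0.70 for Trmt1l and -0.65 for Rnf20.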

How the results depend on the processing

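No paired analysis was possible because the control groups share no replicate number. Against 443 higher and 465 lower genes in controls, the threshold of 0.01 gave 105 and 127, and leaving out replicates 3 and 4 together gave 172 and 180. The rank-sum test, exact only for genes without tied values, gave 0 and 0. Its smallest p here, 0.00433, adjusts to 0.121, and 2806 genes had an unadjusted p under 0.05. Leaving out each control gave 251 to 468 higher and 278 to 552 lower genes; over 1.5 times fewer were found without replicate 3 (294 higher), 4 (306 lower), 7 (251 and 283) and 8 (268 and 278). The second quantile normalization and median centring gave 443 and 465, the filter 551 and 505, the trend 391 and 372, array weights 384 and 384, and the spread of all 21 arrays 643 and 646.

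For knockouts, against 3 and 2, the trend gave 6 higher, array weights 46 and 40, and leaving out each liver 0 to 4 and 0 to 3. For the contrast of both, against 4 and 4, the trend gave 2 higher, the filter 8 lower, and leaving out each liver 0 to 7 and 0 to 16.

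Of 738 list medians under alternatives 10 moved by more than the spread between livers. Without replicates 3 and 4 the core clock median was 0.19 and that of hepatocyte identity -0.26. With the filter the medians were -0.33 for neutrophil, -0.21 for cholangiocyte, -0.13 for sex chromosome and 0.60 for red cell genes. The hepatocyte identity median ranged from -0.25 to -0.10 as each control was left out. No named gene past the threshold changed sign in any of these fits; Rora, Ciart and Bhlhe41, which did not pass, did. Near 0, 15 of 41 list medians changed sign when 1 control was left out, among them fibrillar matrix (-0.17 to 0.05), interferon (-0.04 to 0.20), cell cycle (-0.13 to 0.04), stellate (-0.04 to 0.11) and unfolded protein (-0.02 to 0.10) genes, and 9 did under the other alternatives. Of 58 named genes past the threshold 37 kept the call without each control in turn. Signal over background was not analysed here, and whether low signals, such as those near 2.7, lie at background was not tested.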

Other observations

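Genes with symbols of nucleolar ribosome assembly gave falls and no rises in second-run controls. The group was put together by symbol after its values were seen, so it has no test as a group. The function of each member was not checked, and some, such as Nol3 (0.01) and Nol4 (-0.13), may not take part in ribosome assembly. Of 63 measured genes 22 fell and none rose, against 1.83% and 1.74% of all genes. Negative differences were found in 51, and the median was -0.35 against -0.01 over all genes. Gnl3 (nucleostemin) differed by -1.22 ± 0.17 (adjusted p = 0.00358, limma), Nol8 by -1.12 ± 0.18 (0.00686), Tsr1 by -1.01 ± 0.12 (0.00196), Nop58, a core protein of box C/D particles that guide RNA methylation, by -0.98 ± 0.12 (0.00195), and Heatr1 by -0.97 ± 0.11 (0.00194). Polr1a, the largest subunit of RNA polymerase I, which makes ribosomal RNA, differed by -0.77 ± 0.12 (0.00538). The 19 measured ribosomal protein genes had no call and a median of -0.06. In knockouts the group's median run difference was -0.07, with 41 of 63 negative and none called. The count of 22 was 17 to 23 as each control was left out and 16 without replicates 3 and 4.

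The 5 genes called between knockout runs had run differences in controls of 0.40 ± 0.40 (Tceal9), 0.61 ± 0.23 (Ndufc1), -0.09 ± 0.17 (Meaf6), 0.16 ± 0.18 (Mif) and -0.21 ± 0.23 (Tma7), none past the threshold. Within second-run controls Meaf6 read 5.11 to 5.49 in replicates 6 to 9 and 6.01 in replicates 10 and 11. Tma7 read 6.63 in replicate 11 against 7.58 to 8.04 in the others. Tceal9 read 6.31 in first-run control 4 against 7.91 to 8.65 in the rest of that run.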
